A study of Mus musculus with 16 samples.

Results

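The 6 genes described here encode transporters that move glutamate, the transmitter of photoreceptors, bipolar cells and retinal ganglion cells (RGCs). They are the vesicular transporters Slc17a6 (VGLUT2), Slc17a7 (VGLUT1) and Slc17a8 (VGLUT3) and the plasma membrane transporters Slc1a1 (EAAC1), Slc1a2 (GLT-1) and Slc1a7 (EAAT5). They were taken by gene symbol from 47451 symbols listed in both count tables, in which they have 30 transcripts, 27 of them with a count in any library. For each gene the transcript with the highest mean count stood for the gene, and all 6 of these passed the filter on low counts.

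Vesicular glutamate transporters load glutamate into synaptic vesicles and so mark which neurons release it. In the retina, VGLUT1 is known from photoreceptor and bipolar cell terminals, VGLUT2 from RGCs and VGLUT3 from a type of amacrine cell. The plasma membrane transporters clear released glutamate by carrying it into cells together with sodium. GLT-1 is the main astrocytic transporter of the brain, but in the retina it is known from cones and bipolar cells, EAAT5 is known from photoreceptor and bipolar cell terminals, where it also acts as a chloride channel, and EAAC1 is known from neurons, RGCs among them.

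Ribosome-bound RNA was purified from mouse retina at postnatal day 60 with an antibody against the HA tag (translating ribosome affinity purification, TRAP), in 16 libraries. The first table held 2 replicates each of the immunoprecipitate (IP) and the input of Opn4-Cre; Rpl22-HA mice, in which Cre turns on an HA-tagged ribosomal protein, and of the IP and the input of Opn4-Cre mice that lack the tag (no-HA), with both sexes pooled per the labels. The second table held IPs from 4 Opn4-Cre; Rpl22-HA; Brn3bcKO-AP mice (Brn3bcKO), in which Cre also removes the transcription factor BRN3B (Pou4f2), and from 4 Opn4-Cre; Rpl22-HA mice (control), with 3 males and 1 female in each group. Mice had a mixed genetic background, and the input was 1.5% of the lysate. Cre was driven from the melanopsin gene Opn4, which marks intrinsically photosensitive RGCs (ipRGCs), and per the study the tag was also present in the photoreceptor layer, so an IP here is not a pure ipRGC sample.

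Library totals ranged from 2332612 to 14512132 counts in the first table, the lowest being input replicate 1 of no-HA mice, and from 12994498 to 20350881 in the second. Pou4f2, the targeted gene, stood at 18.8, 24.9, 33.8 and 34.0 normalized CPM (counts scaled to a common library size) in Brn3bcKO IPs, against 36.8, 44.7, 53.6 and 64.2 CPM in control IPs. The groups did not overlap, the transcript remained present in every Brn3bcKO library, and the fall of 0.83 on the log2 scale did not pass the test (adjusted p = 0.0852, edgeR quasi-likelihood test). Opn4 stood at 35.5 and 36.1 CPM in Rpl22-HA IPs, against 1.19 and 1.51 CPM in their inputs, and 12 of 15 pan-RGC markers and 11 of 12 cone markers were also called higher in these IPs. Y-linked transcripts had at most 7 counts in the no-HA libraries, which goes against their label of pooled sexes, whereas Rpl22-HA libraries had 135 to 370.

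In the first comparison, Slc17a6 was the transporter called higher in Rpl22-HA IPs than in their inputs. Slc17a8 was called lower, on few counts, a call that was lost without either of 2 libraries, and its difference from no-HA mice did not pass the test. Of the 6 genes, 1 was called higher in Rpl22-HA IPs than in their inputs, where 14.4% of all genes tested were called higher, and 1 was called lower, where 7.08% were. A call required an adjusted p under 0.05 and an absolute log2 fold change over 1. The median log2 fold change was -0.17 for the 6 genes and 0.21 for all genes tested. The same counts in no-HA mice, in which the antibody has no tag to bind, were 0 higher (21.2% of all genes) and 1 lower (15.7%). For the enrichment of Rpl22-HA IPs beyond that of no-HA IPs, tested as the difference of both log2 fold changes, they were 2 higher (19.8%) and 0 lower (17% of all genes).

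**Figure D1:**
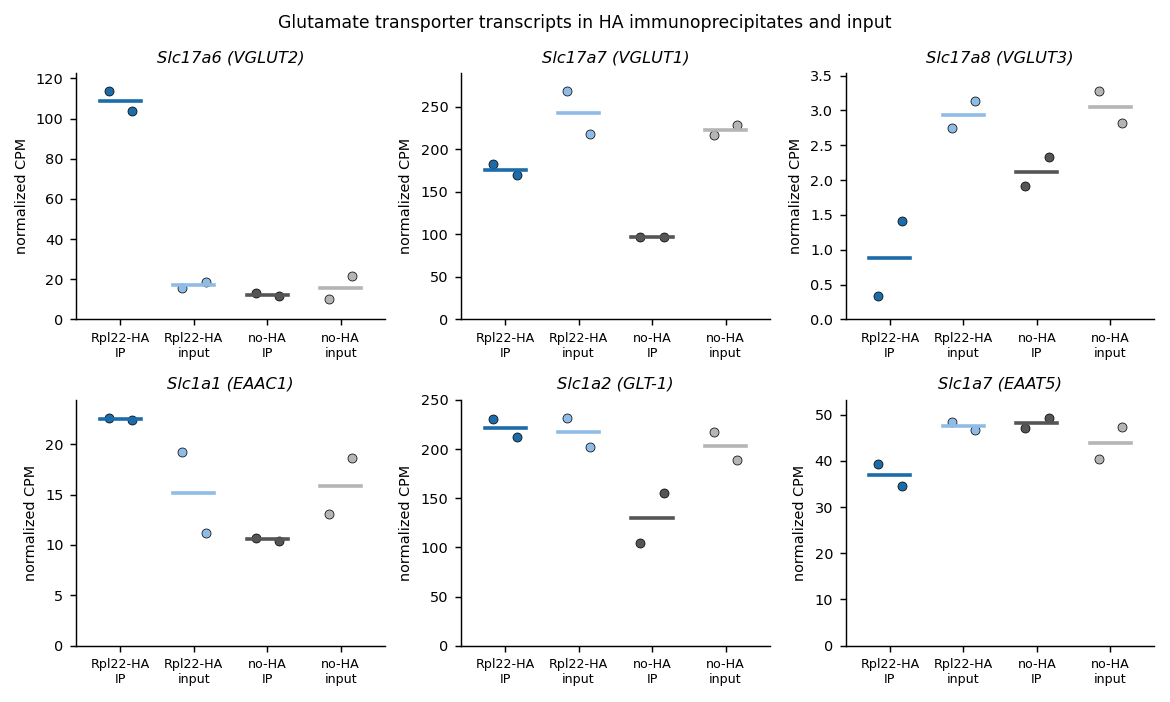
Normalized CPM (vertical axes, each from 0) of the transcript that stands for each gene in the 8 libraries of the first table, by group. Points are libraries and lines are means of 2 replicates. Slc17a6 lies at 113 and 104 CPM in Rpl22-HA IPs and at 21.4 CPM or less in every other library.

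Slc17a6 encodes VGLUT2, the vesicular transporter of RGCs (ENSMUST00000032710, GRCm38 chr7:51622006-51671119, plus strand, 12 exons). It stood at 113 and 104 CPM in Rpl22-HA IPs, against 15.9 and 18.6 CPM in their inputs. It stood at 13.0 and 11.6 CPM in no-HA IPs, against 10.2 and 21.4 CPM in no-HA inputs. Both Rpl22-HA IPs thus lay above all 6 other libraries, while the no-HA IPs lay within the range of their inputs. With 2 libraries a group, separation from the matched inputs alone was common. Both Rpl22-HA IPs lay above both inputs for 48.1% of all genes tested and below them for 27.1%, and the no-HA IPs for 39.6% and 33.9%. The share of genes that lay above, or below, all 6 other libraries was not counted. Over input the log2 fold change was 2.65 ± 0.22 (SE, n = 2 each), a 6.29-fold difference with an adjusted p of 7.06e-08 by edgeR's quasi-likelihood test. In no-HA mice it was -0.49 ± 0.24 (edgeR adjusted p = 0.0954). The difference between both enrichments was 3.15 ± 0.32 on the log2 scale (edgeR adjusted p = 1.08e-06). The shorter transcripts ENSMUST00000207945, annotated as subject to nonsense-mediated decay, and ENSMUST00000208597 were called higher as well, by 1.36 and 1.63 on the log2 scale (of all transcripts tested, 13.7% were called higher and 7.23% lower).

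Because Slc17a6 showed the largest enrichment of the 6 genes, the sequence before its RefSeq starts was searched for short motifs, in 250 bases upstream on both strands (GRCm38.p6). The motifs were TAATTA, a homeodomain core, ATAATTAAT, which resembles sites of BRN3 (POU4) factors, TAATCC, a site of CRX and OTX2, and CACGTG, an E-box. TAATTA occurred in 4.84%, ATAATTAAT in 0.2587%, TAATCC in 6.252% and CACGTG in 6.021% of 32851 promoters of the same length. The window before the first Slc17a6 start held none of them. That before a second RefSeq start, at position 51624637 inside the gene, held ATAATTAAT on the minus strand, 83 bases before the start, overlapping a TAATTA. It is shown with the match in capitals (plus strand, chr7:51624387-51624636).
Slc17a6 second start: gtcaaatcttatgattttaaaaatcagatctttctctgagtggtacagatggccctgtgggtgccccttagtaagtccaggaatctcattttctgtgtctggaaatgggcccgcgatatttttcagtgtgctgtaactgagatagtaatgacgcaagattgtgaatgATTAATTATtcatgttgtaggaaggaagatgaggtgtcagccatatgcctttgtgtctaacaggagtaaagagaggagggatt
The only other match to TAATTA or ATAATTAAT among the starts of the 6 genes was a TAATTA 141 bases before a second start of Slc17a8, the member called lower. A match is a description of letters only, and binding was not measured here.

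Slc17a7 encodes VGLUT1, the vesicular transporter of photoreceptor and bipolar cell terminals (ENSMUST00000085374, chr7:45163949-45176142, plus strand). It stood at 182 and 169.7 CPM in Rpl22-HA IPs, against 268 and 218 CPM in their inputs. It stood at 96.6 and 96.6 CPM in no-HA IPs, against 217 and 228 CPM in no-HA inputs. The transcript was thus abundant in total retina and remained at a high level in both kinds of IP, higher in those with the tag. The difference over input was -0.47 ± 0.15 on the log2 scale in Rpl22-HA mice (edgeR adjusted p = 0.0255, short of the fold threshold) and -1.21 ± 0.16 in no-HA mice, where it was called lower (edgeR adjusted p = 6.86e-06). The enrichments differed by 0.74 ± 0.22 (edgeR adjusted p = 0.0133, short of the fold threshold). For the less abundant coding transcript ENSMUST00000209634 this difference was called, at 1.04 (edgeR adjusted p = 0.00167), where 17.7% of all transcripts tested were called higher. The retained-intron transcripts of the gene, at 0.64 to 0.69, were not called. The sum of 12 rod markers fell in both kinds of IP, to 13249 and 14858 CPM in Rpl22-HA IPs against 53036 and 47754 CPM in their inputs, and to 13990 and 12973 CPM in no-HA IPs against 46272 and 46298 CPM in no-HA inputs. The part of rod RNA in the Slc17a7 values was not tested.

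Slc17a8 encodes VGLUT3, found in an amacrine cell type (ENSMUST00000020102, chr10:89574020-89621253, minus strand), and was the lowest of the 6 genes in every library. It had 4 and 18 counts in Rpl22-HA IPs, against 23 and 27 counts in their inputs, or 0.343 and 1.42 CPM against 2.74 and 3.14 CPM. It had 20 and 33 counts in no-HA IPs, against 8 and 22 counts in no-HA inputs, or 1.91 and 2.33 CPM against 3.27 and 2.82 CPM. The Rpl22-HA IPs lay below both their inputs, as for 27.1% of all genes tested. They also lay below the no-HA libraries, for which no such share was counted. Over input the log2 fold change was -1.70 ± 0.49 (edgeR adjusted p = 0.0128), and the call was lost without IP replicate 1 (-1.23, adjusted p = 0.0926) or without input replicate 2 (-1.60, adjusted p = 0.0825). Without IP replicate 2 the value was -3.19 (adjusted p = 0.00145), so at this depth its size rests on few counts. The difference between the enrichments of both mouse lines did not pass the test (-1.23 ± 0.69, edgeR adjusted p = 0.172). Summed amacrine markers were also lower in IPs, at 179.9 and 192 CPM in Rpl22-HA IPs against 718 and 708 CPM in their inputs. Without the tag they stood at 283 and 304 CPM in IPs, against 651 and 676 CPM in inputs.

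Levels of different genes were set side by side per kilobase of transcript. This scale presumes reads spread along the transcript, and whether the deposited counts are such reads or molecules tagged at the 5′ end is unknown here, so orders and shares hold for this scale only. On it the vesicular transporters had the order Slc17a7, Slc17a6, Slc17a8 in all 8 libraries of the first table, as in CPM not divided by length, and their shares moved. Slc17a6 made up 30.2% ± 0.39 (SD, n = 2) of the summed CPM per kilobase of the 3 genes in Rpl22-HA IPs, against 4.80% ± 1.15 in their inputs. It made up 8.13% ± 0.60 in no-HA IPs, against 4.67% ± 2.11 in no-HA inputs. Slc17a7 made up 69.4% and 69.7% in Rpl22-HA IPs and between 90.3% and 95.9% in the other 6 libraries. Other vesicular transporters behaved unlike Slc17a6. Of 5 listed genes, 3 were tested, and Slc32a1, the GABA and glycine transporter VGAT, and Slc18a3, the acetylcholine transporter, were lower in Rpl22-HA IPs by 3.53 and 3.58 on the log2 scale, both also being lower in no-HA IPs.

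Slc1a1 encodes EAAC1, a neuronal transporter (ENSMUST00000025875, chr19:28835074-28913960, plus strand). It stood at 22.6 and 22.4 CPM in Rpl22-HA IPs, against 19.2 and 11.2 CPM in their inputs. It stood at 10.7 and 10.4 CPM in no-HA IPs, against 13.1 and 18.6 CPM in no-HA inputs. With the tag both IPs were above their inputs, and without it both were below. The log2 fold changes were 0.57 ± 0.23 with the tag (edgeR adjusted p = 0.0643) and -0.64 ± 0.25 without (edgeR adjusted p = 0.0409, short of the fold threshold). Their difference of 1.21 ± 0.34 was called (edgeR adjusted p = 0.0097). The call was lost without Rpl22-HA input replicate 2 (0.88, adjusted p = 0.0839) or no-HA input replicate 2 (0.86, adjusted p = 0.168), and under the study's selection of transcripts higher in Rpl22-HA than in no-HA IPs (0.26, adjusted p = 0.609). A retained-intron transcript of the gene, ENSMUST00000160702, differed from it in no-HA mice. It stood at 8.12 and 6.98 CPM in no-HA IPs, against 0.818 and 2.18 CPM in no-HA inputs (2 and 17 counts), and was called higher by 2.07 ± 0.43 on the log2 scale (edgeR adjusted p = 0.000696). It stood at 2.91 and 2.36 CPM in Rpl22-HA IPs, against 2.86 and 1.28 CPM in their inputs, which overlapped (0.35 ± 0.41, edgeR adjusted p = 0.546).

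Slc1a2 encodes GLT-1, the high-affinity transporter that in the retina is known from cones and bipolar cells. The transcript that stood for it (ENSMUST00000080210, chr2:102658659-102790784, plus strand) is 11595 bases long, of which 9253 are 3′ untranslated region. It stood at 231 and 212 CPM in Rpl22-HA IPs, against 232 and 202 CPM in their inputs. It stood at 104 and 155 CPM in no-HA IPs, against 217 and 189 CPM in no-HA inputs. The level in the IPs with the tag overlapped that of total retina, and only the no-HA IPs lay lower. The log2 fold change was 0.03 ± 0.18 with the tag (edgeR adjusted p = 0.912), a value whose sign turned under several other settings, and -0.64 ± 0.18 without it (edgeR adjusted p = 0.00794, short of the fold threshold). The difference was 0.67 ± 0.26 (edgeR adjusted p = 0.0486, short of the fold threshold).

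Slc1a7 encodes EAAT5, the transporter of photoreceptor and bipolar cell terminals (ENSMUST00000106713, chr4:107968332-108013532, plus strand). It stood at 39.3 and 34.5 CPM in Rpl22-HA IPs, against 48.4 and 46.7 CPM in their inputs. It stood at 47.2 and 49.3 CPM in no-HA IPs, against 40.5 and 47.3 CPM in no-HA inputs. The Rpl22-HA IPs were the lowest of the 8 libraries, by a small margin. Lying below both inputs was the case for 27.1% of all genes tested, and the share lying below all other libraries was not counted. No comparison of the first table called it, with log2 fold changes of -0.37 ± 0.16 with the tag (edgeR adjusted p = 0.0819), 0.12 ± 0.16 without (edgeR adjusted p = 0.56) and a difference of -0.49 ± 0.23 (edgeR adjusted p = 0.0995). The retained-intron transcript ENSMUST00000124190 overlapped its inputs with the tag, at 26.2 to 29.7 CPM against 26.8 to 28.9 CPM. Its log2 fold changes were 0.00 ± 0.16 with the tag (edgeR adjusted p = 0.987) and 0.58 ± 0.17 without (edgeR adjusted p = 0.00892, short of the fold threshold).

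Among the plasma membrane transporters, the order per kilobase was Slc1a2, Slc1a7, Slc1a1 in Rpl22-HA IPs, with 19.1 ± 1.13, 12.3 ± 1.12 and 5.92 ± 0.05 CPM per kilobase (SD, n = 2). Their inputs had the same order, with 18.7 ± 1.82, 15.8 ± 0.41 and 4.00 ± 1.50 CPM per kilobase. In no-HA IPs Slc1a7, at 16.1 ± 0.50 CPM per kilobase, stood above Slc1a2, at 11.2 ± 3.12 CPM per kilobase, an order that turned round in CPM not divided by length, where the long Slc1a2 transcript was the higher in every library.

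The other genes of glutamate transport and metabolism were read from a list of 16, of which 15 were tested. In Rpl22-HA IPs 3 were called higher than in input and 2 lower, where 14.4% and 7.08% of all genes tested were. Their median log2 fold change was 0.26, near the 0.21 of all genes. Got1, the cytosolic aspartate aminotransferase, stood between 449.7 and 485 CPM in Rpl22-HA IPs, against 157 to 159.6 CPM in their inputs, a log2 fold change of 1.56 ± 0.16 (edgeR adjusted p = 1.13e-06). Gls2, a glutaminase, and Slc38a1, a glutamine transporter of neurons, were higher by 1.60 and 1.05 on the log2 scale. Slc1a3 (GLAST) and Glul (glutamine synthetase), which take up and convert glutamate in Muller glia, were lower, by 2.83 and 3.34 on the log2 scale. Summed Muller glia and astrocyte markers stood at 512 and 536 CPM in Rpl22-HA IPs, against 2798 and 2866 CPM in their inputs. They fell without the tag as well, to 420 and 404 CPM in no-HA IPs, against 2537 and 2518 CPM in no-HA inputs.
In no-HA IPs 5 genes of the list were called lower than in input (15.7% of all genes tested), among them Slc1a3, Glul, Got1 and Got2. The enrichment with the tag exceeded that without it for 5 genes, as for 19.8% of all genes tested. These were led by Got1 (2.83 on the log2 scale) and Got2 (1.98), with Slc1a4 and Gls2 at 1.59 and 1.54. It fell short for Slc1a3 (-1.23), as for 17% of all genes.

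The second comparison set IPs of Brn3bcKO mice against those of control mice. The transcripts of Slc1a2 and Slc1a7 were called higher in Brn3bcKO IPs, and no member was called lower. In no-HA IPs, which were normalized separately, mean levels were 130 CPM for Slc1a2 and 48.3 CPM for Slc1a7. Control IPs had means of 177 and 25.8 CPM, and Brn3bcKO IPs 411 and 45.2 CPM. The part of RNA bound without the tag in these differences was not tested. A call required an adjusted p under 0.05. Of the 6 genes, 2 were called higher, where 0.682% of all genes tested were called higher, and 0 lower, where 0.905% were. Slc17a7 and Slc1a1 had an unadjusted edgeR p under 0.05 but did not pass after adjustment. The share of all genes at that level was not counted. The median log2 fold change was 0.14 for the 6 genes and 0.05 for all genes tested. In bulk samples of this kind, fewer cells of a type and less RNA per cell cannot be told apart. By HA labelling, the study counted significantly fewer RGCs in Brn3bcKO retinas and no significant difference in cone density. By melanopsin labelling it found no change in ipRGC number, and it gave the HA count less weight. For selected ipRGC-enriched genes the study adjusted fold changes by the labelled cell ratio. No adjustment by cell counts was made here.

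**Figure D2:**
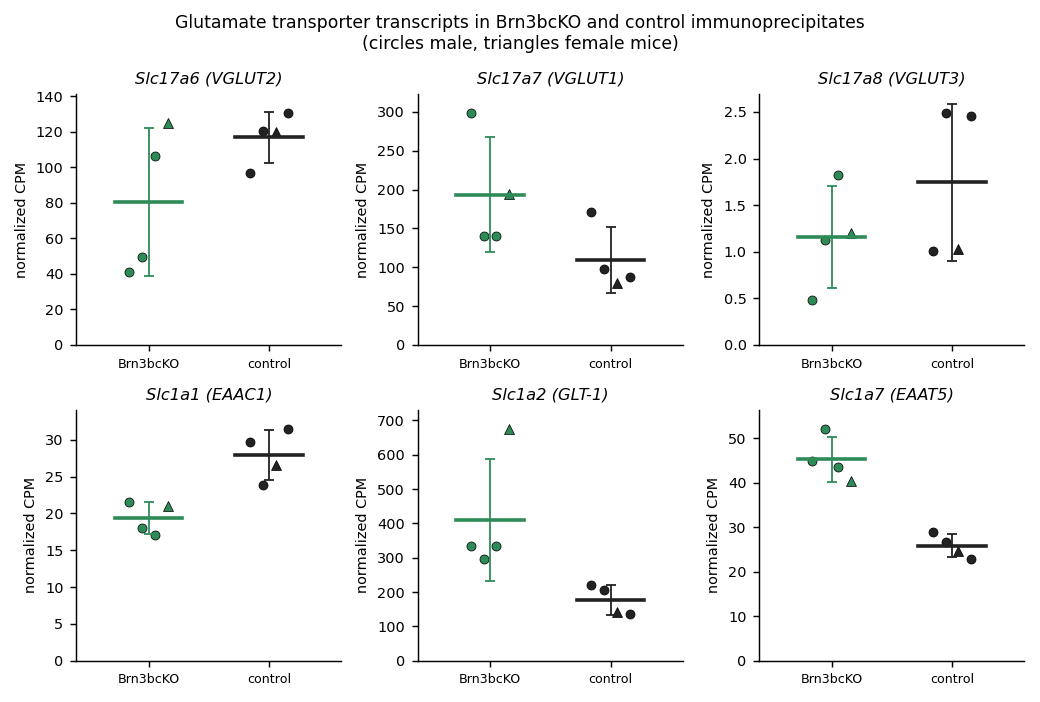
Normalized CPM (vertical axes, each from 0) of the 6 genes in Brn3bcKO and control IPs. Circles are male and triangles female mice, horizontal lines are means and bars are SD (n = 4). All Brn3bcKO values lie above all control values for Slc1a2 and Slc1a7, and below them for Slc1a1.

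Slc1a2 stood at 335, 297, 336 and 676 CPM in Brn3bcKO IPs, against 219.7, 207, 143 and 136 CPM in control IPs. Every Brn3bcKO library lay above every control library, as for 5.46% of all genes tested, and replicate 4, the only female of its group, lay far above the rest. The log2 fold change reached 1.22 ± 0.26 (SE, n = 4 each), a 2.33-fold difference (edgeR adjusted p = 0.0407). The call was lost without Brn3bcKO replicate 4 (0.85, adjusted p = 0.083) or 3 (1.30, 0.0828), without control replicate 2 (1.30, 0.0661), 3 (1.13, 0.169) or 4 (1.11, 0.155), and with sex as a factor (1.13, 0.0636), the direction being the same each time. The shorter coding transcripts ENSMUST00000005220 and ENSMUST00000111213 were called higher too, both by 1.02 on the log2 scale (adjusted p = 0.0432 and 0.0445 by the same edgeR test), where 0.432% of all transcripts tested were. Their levels were almost the same (means of 26.6 and 26.7 CPM in Brn3bcKO IPs), so they are hardly separate measurements. Other coding transcripts were higher without passing: ENSMUST00000111212 (0.95, edgeR adjusted p = 0.0691), ENSMUST00000136488 (0.78, 0.353) and ENSMUST00000123759 (1.40, 0.219). ENSMUST00000005220 amounted to 8.21%, 6.56%, 7.94% and 4.86% of the CPM of the long transcript in Brn3bcKO IPs, against 6.40%, 8.83%, 7.31% and 7.22% in control IPs. In CPM not divided by length, the short form was thus a small share of the long form in both groups. This share was lowest in the library with the highest long form. The short form is 2127 bases long, against 11595 for the long form, so per kilobase its share would be larger. The RefSeq start of Slc1a2 is that of ENSMUST00000005220, and the sequence before it held none of the 4 motifs (plus strand, chr2:102706188-102706437).
Slc1a2: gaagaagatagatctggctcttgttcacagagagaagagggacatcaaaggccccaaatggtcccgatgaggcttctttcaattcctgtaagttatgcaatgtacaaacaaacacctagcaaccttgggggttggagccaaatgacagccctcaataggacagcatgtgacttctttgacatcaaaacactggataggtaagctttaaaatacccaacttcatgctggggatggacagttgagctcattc

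Slc1a7 stood at 44.9, 52.1, 43.45 and 40.3 CPM in Brn3bcKO IPs, against 28.9, 26.7, 24.7 and 22.9 CPM in control IPs. The groups were well apart and each was narrow, as the smallest SE of the 6 genes in this comparison shows. On the log2 scale it was higher by 0.81 ± 0.16, or 1.75-fold (edgeR adjusted p = 0.0271). The call was lost without Brn3bcKO replicate 2 (0.74, adjusted p = 0.068) or 3 (0.83, 0.0828) and without control replicate 2 (0.83, 0.0581), 3 (0.79, 0.133) or 4 (0.76, 0.106). The retained-intron transcript ENSMUST00000124190 was higher by 0.78 (edgeR adjusted p = 0.0298). The sequence before the RefSeq start held 1 CACGTG, 60 bases upstream, given in capitals because this gene and Slc1a2 were the members called (plus strand, chr4:107968156-107968405).
Slc1a7: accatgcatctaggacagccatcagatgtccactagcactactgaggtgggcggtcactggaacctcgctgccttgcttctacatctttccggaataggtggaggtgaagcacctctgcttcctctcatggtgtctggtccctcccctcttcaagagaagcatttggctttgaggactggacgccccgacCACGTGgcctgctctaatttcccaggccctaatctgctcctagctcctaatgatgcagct

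Slc17a7 stood at 299, 140.5, 141 and 194 CPM in Brn3bcKO IPs, against 171, 98.2, 79.8 and 86.9 CPM in control IPs. Control replicate 1 lay above 2 Brn3bcKO libraries, so the groups overlapped. The log2 fold change of 0.83 ± 0.28 did not pass the test (edgeR adjusted p = 0.171). It passed when only the 21834 transcripts with a higher mean in Rpl22-HA IPs than in no-HA IPs were tested, the selection the study used (0.94, edgeR adjusted p = 0.0381). Under the same selection Slc1a2 had an adjusted p of 0.00423, and Slc1a7 and Slc17a8 were not tested, since their means were higher in no-HA IPs. Without the selection, the retained-intron Slc17a7 transcript ENSMUST00000210498 lay at 3.93 to 8.62 CPM in Brn3bcKO IPs, against 2.07 to 3.86 CPM in control IPs. It was higher by 1.18 ± 0.30 on the log2 scale (edgeR adjusted p = 0.0738). The other Slc17a7 transcripts were higher by 0.81 to 0.93, and none passed the test.

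Slc1a1 stood at 21.6, 18.0, 17.0 and 21.0 CPM in Brn3bcKO IPs, against 29.7, 23.8, 26.6 and 31.5 CPM in control IPs. All Brn3bcKO values lay below all control values, which was the case for 5.01% of all genes tested. The log2 fold change of -0.52 ± 0.16 had an unadjusted p of 0.00654 and did not pass the test (edgeR adjusted p = 0.141). Its retained-intron transcripts differed in direction. ENSMUST00000162189 was at -0.36 ± 0.23, ENSMUST00000160702 at 0.53 ± 0.32 and ENSMUST00000161119 at 0.07 ± 0.42, and none passed the test.

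Slc17a6 stood at 41.0, 49.5, 107 and 125 CPM in Brn3bcKO IPs, against 96.8, 120.3, 120.3 and 131 CPM in control IPs. Brn3bcKO replicates 1 and 2 lay below all controls, and replicates 3 and 4 lay within their range. The log2 fold change was -0.54 ± 0.30 (edgeR adjusted p = 0.415), with a spread in Brn3bcKO IPs of 41.6 CPM, against 14.4 CPM in control IPs (SD, n = 4 each). The short Slc17a6 transcript ENSMUST00000207375 lay below all controls in every Brn3bcKO library, but at -1.47 ± 0.46 it also missed the threshold (edgeR adjusted p = 0.137). Slc17a8 stood at 0.479, 1.12, 1.82 and 1.21 CPM in Brn3bcKO IPs, against 1.00, 2.49, 1.03 and 2.46 CPM in control IPs, and the groups overlapped (log2 fold change -0.56 ± 0.44, edgeR adjusted p = 0.589).

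**Figure D3:**
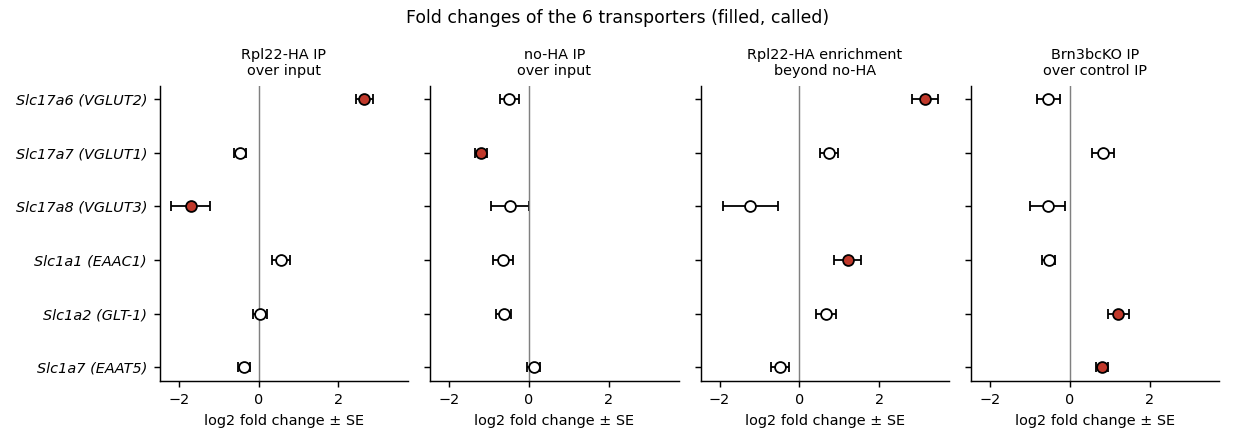
Log2 fold changes (horizontal axis, shared by the panels) of the 6 genes in 4 comparisons, with bars for SE. Filled points passed the threshold. Slc17a6 has the largest values, 2.65 over input and 3.15 beyond the no-HA enrichment, and Slc1a2 the largest in Brn3bcKO IPs, 1.22 over control.

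Marker sums of several cell types also differed between the groups. The sum of 12 cone markers was 12080, 8799, 8686 and 10658 CPM in Brn3bcKO IPs, against 7517, 5201, 4460 and 5605 CPM in control IPs, and 6 of the 12 were called higher. The sum of 15 pan-RGC markers, Pou4f2 among them, was 2783, 2289, 3118 and 3070 CPM in Brn3bcKO IPs, against 5290, 3729, 4605 and 5276 CPM in control IPs, and 3 of the 15 were called lower. Neither sum overlapped between the groups, and no gene of either list was at 0 in any library. Rod markers summed to between 10214 and 16328 CPM in Brn3bcKO IPs, against 7135 to 9586 CPM in control IPs, with no overlap but 0 of 12 called. Bipolar markers summed to between 268 and 364 CPM in Brn3bcKO IPs, against 192 to 249 CPM in control IPs, with no overlap and 2 of 11 called higher. Amacrine markers summed to between 279 and 288 CPM in Brn3bcKO IPs, against 206 to 278 CPM in control IPs, a narrow separation with 0 of 10 tested called. The sum of 10 ipRGC markers, unlike the pan-RGC sum, overlapped between the groups, at 187 to 280.1 CPM in Brn3bcKO IPs, against 239 to 331 CPM in control IPs. Of these 10 genes 1 was called lower (Tbx20, a transcription factor), their median log2 fold change was -0.14 and that of Opn4 was -0.20 (edgeR adjusted p = 0.693).

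Expressed relative to the cone and pan-RGC sums, most differences were smaller. The transporters were not set against the rod, bipolar, amacrine or ipRGC sums. Slc1a7 amounted to 0.461% ± 0.11 of the cone sum in Brn3bcKO IPs, against 0.465% ± 0.08 in control IPs (SD, n = 4 each). Slc17a7 amounted to 1.88% ± 0.41 of it in Brn3bcKO IPs, against 1.88% ± 0.30 in control IPs. Slc1a2 amounted to 2.77%, 3.38%, 3.86% and 6.34% of it in Brn3bcKO IPs, against 2.92%, 3.99%, 3.20% and 2.43% in control IPs, so that only replicate 4 lay outside the range of the controls on the high side. In the first table the mean share of Slc1a7 in the cone sum was 0.404% in Rpl22-HA IPs, against 3.38% in their inputs and 4.31% in no-HA IPs. That of Slc17a7 was 1.93%, against 17.3% and 8.65%, and that of Slc1a2 was 2.43%, against 15.4% and 11.5%. The shares were thus similar only among IPs with the tag. Slc17a6 amounted to 1.47%, 2.16%, 3.42% and 4.08% of the pan-RGC sum in Brn3bcKO IPs, against 1.83%, 3.23%, 2.61% and 2.48% in control IPs. Slc1a1 amounted to 0.698% ± 0.11 of the pan-RGC sum in Brn3bcKO IPs, against 0.593% ± 0.03 in control IPs. When libraries were scaled to the cone sum, which moved the median of all genes to -0.78 on the log2 scale, the fold change of Slc1a2 was 0.38 (edgeR adjusted p = 0.203) that of Slc17a7 was 0.0014 and that of Slc1a7 turned to -0.01. When they were scaled to the pan-RGC sum, which moved that median to 0.80, Slc1a2 and Slc1a7 remained higher, at 1.91 and 1.56, Slc17a7 was at 1.58, and Slc17a6, Slc17a8 and Slc1a1 turned to 0.14, 0.12 and 0.23. The part of cell composition in the transporter values was not tested beyond these scalings.

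**Figure D4:**
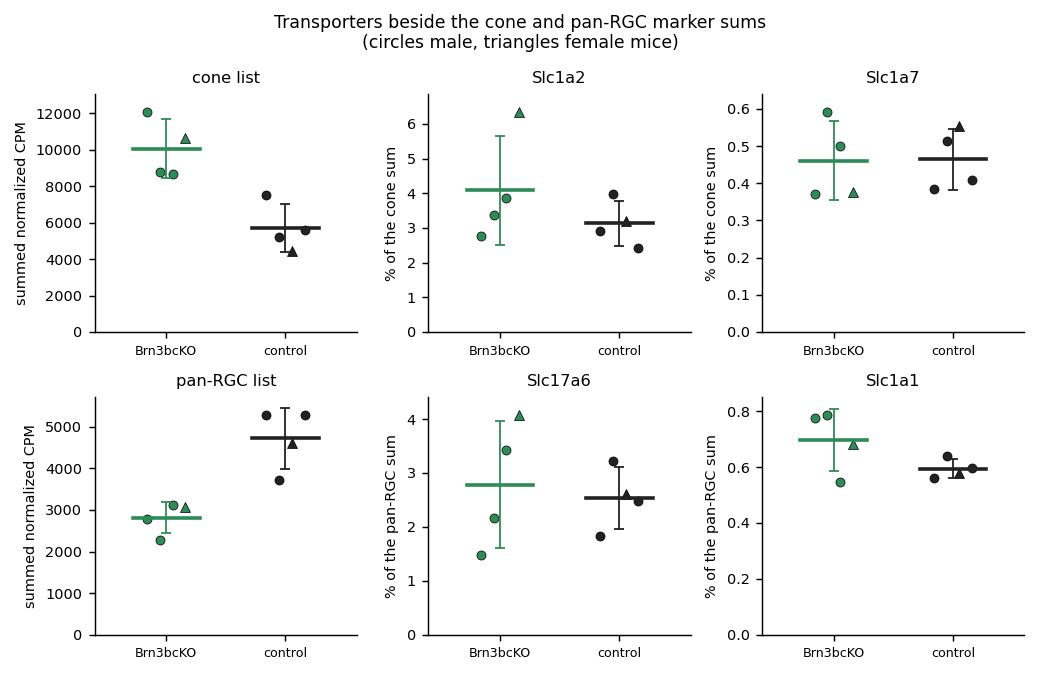
Summed normalized CPM of the cone and pan-RGC lists, and 4 transporters as a percentage of those sums, in Brn3bcKO and control IPs (vertical axes from 0). Circles are male and triangles female mice, lines are means and bars are SD (n = 4). The sums do not overlap between the groups, whereas the percentages do for all 4 transporters.

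On the per-kilobase scale, Slc1a1 made up between 7.14% and 11.5% of the summed plasma membrane transporters in Brn3bcKO IPs, against 19.0% to 30.0% in control IPs. Slc17a6 made up between 8.82% and 34.6% of the summed vesicular transporters in Brn3bcKO IPs, against 28.4% to 51.3% in control IPs. The first of these ranges did not overlap and the second did. In control replicates 3 and 4 Slc17a6 exceeded Slc17a7 on this scale (51.3% and 51.0% of the sum, against 48.3% and 48.1%), whereas Slc17a7 was the higher in all 4 Brn3bcKO libraries. None of the 15 other glutamate genes tested was called in Brn3bcKO IPs (0 higher and 0 lower by edgeR's quasi-likelihood test), and on the log2 scale their median fold change was -0.08. The nearest was Slc38a3, a glutamine transporter, at 0.71 ± 0.18 (edgeR adjusted p = 0.0664), which is named here after its value was seen. Slc1a3 and Glul, at 0.54 and 0.53 on the log2 scale, also had an unadjusted edgeR p under 0.05, as did Slc38a3. The share of all genes at that level was not counted.

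The profile of each member over all 16 libraries was also set against those of 7245 genes with a mean of at least 10 CPM in both tables, as the root mean square difference of centred log2(CPM + 1) values. The genes most like Slc17a6 were Rbms3, Ebf1 and Sv2c (0.25 to 0.28, against a median of 0.97 over all genes). Those most like Slc1a7 were Crx, the photoreceptor transcription factor, Ctbp2, which also encodes the synaptic ribbon protein RIBEYE, and Safb (0.13 to 0.16, against 0.50). Slc1a2 was closest to Kcnab1, Thrb, the thyroid hormone receptor beta gene, and Zfp385b (0.21 to 0.27, against 0.65). Slc17a7 was closest to Ormdl3, Tmem150c and Gtpbp1, Slc1a1 to Tpgs2, Cpne6 and Eif3k, and Slc17a8, whose low counts make its profile uncertain, to Fam196a, Rims1 and Ccng1. The 16 libraries fall into few groups and the genes are not independent, so these are descriptions without a test.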

How the data were processed

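TRAP-seq libraries were made by the Smart-seq3 protocol and sequenced as 37 bp paired-end reads, and the authors aligned them to mm10 and deposited raw counts per transcript in 2 tables of 8 libraries each (117860 transcripts after dropping 17 repeated rows). Counting settings, and whether molecular identifiers were used, are not given in the sources used here. Transcripts that share exons share reads, so their counts are not independent. Transcripts were placed on GENCODE M21 (99.08% matched), and promoters are RefSeq's (GRCm38.p6).

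The deposited counts were normalized by TMM and tested per table with edgeR 4.0.16 in R 4.3.3 (filterByExpr, glmQLFit, glmQLFTest), with Benjamini-Hochberg adjustment over all 45189 and 43975 transcripts tested (14099 and 13927 genes). Alternatives used DESeq2 1.42.0, a likelihood ratio test, RLE factors, no filter, 1 transcript per gene, the study's selection, marker scalings, sex, a replicate block and each library left out. On counts simulated with a common dispersion, the test recovered 35% of 2-fold and 92% of 4-fold changes for IP over input, and 39% and 97% for Brn3bcKO over control. Recovery there meant an adjusted p under 0.05. The fold threshold of the IP over input calls was not applied, so fewer 2-fold changes would be called with it. Replicates are separate samples per the labels, and the p-values measure the spread between them.

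The members and gene lists were chosen with earlier results of these data known. Named were all members, called genes of the list of other glutamate genes (up to 4 per direction, apart from a result that is not reported here), the 3 most similar profiles, Pou4f2 and Opn4. Counts limit the precision of Slc17a8 most, and no replicate pair agreed within sampling noise.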

Additional observations from a re-analysis of the deposited data

Results flagged for a closer look

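Slc1a2 in Brn3bcKO replicate 4 stood at 676 CPM, against 335, 297 and 336 CPM in the other Brn3bcKO libraries. Its gap to the nearest of them was 0.899 of the range of the group in CPM, above Dixon's critical value for a group of 4, which chance passes in about 1 of 20 such groups. It was the only one of the 6 genes with such a library in either group.

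The enrichment over input differed between Rpl22-HA and no-HA mice, by the test of the difference, for Slc17a6 (3.15 on the log2 scale), Slc1a1 (1.21), Slc17a7 (0.74) and Slc1a2 (0.67), with edgeR adjusted p-values of 1.08e-06, 0.0097, 0.0133 and 0.0486. All 4 were higher with the tag. Only the first 2 exceeded a log2 difference of 1.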

How the results depend on the processing

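The enrichment of Slc17a6 over input and beyond no-HA mice kept its direction and its call in every alternative run, between 2.27 and 2.78 and between 2.20 and 3.49 on the log2 scale. With single libraries left out, members called higher over input ranged from 1 to 2 and lower from 0 to 1 in Rpl22-HA mice, higher were 0 and lower 1 to 2 in no-HA mice, and higher ranged from 1 to 2 and lower from 0 to 1 for the difference. The second member called higher over input was Slc1a1 without Rpl22-HA input replicate 1 (1.02), the second lower in no-HA mice was Slc1a2 without IP replicate 2 (-1.01), and the member lower for the difference was Slc17a8 without Rpl22-HA IP replicate 2 (-2.68). In Brn3bcKO IPs, members called higher ranged from 0 to 2 and lower were 0.

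Under the study's selection, members called lower were 0 in both IP over input comparisons and 1 was higher for the difference, Slc17a6. There Slc17a7 and Slc1a2 turned to -0.22 and -0.30 for the difference, and Slc17a6 to 0.071 in no-HA mice, where it ranged from -0.83 to 0.29 with single libraries left out (0.29 without input replicate 2). Slc1a2 over input in Rpl22-HA mice, 0.03 as reported, was -0.075 by DESeq2 and by RLE, -0.074 without a filter, -0.0056 with 1 transcript per gene, -0.15 with the 2 groups of the contrast alone, -0.35 under the selection, and between -0.21 and 0.15 with single libraries left out (-0.21, -0.06, -0.06, -0.13 and -0.14 where it turned). For Brn3bcKO, 1 member was higher with sex as a factor, and scaling to the cone sum gave 0 higher and 3 lower (Slc17a6, Slc17a8 and Slc1a1) with Slc1a7 at -0.013. Scaling to the pan-RGC sum turned Slc17a6 to 0.14, Slc17a8 to 0.12 and Slc1a1 to 0.23. The cause was not tested.

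The selection also lowered the transcripts called over input to 2308 higher and 1780 lower in Rpl22-HA mice, against 6179 and 3269 without it, and to 1512 and 2733 in no-HA mice, against 9654 and 7465, and for the difference to 2753 and 625, against 7986 and 6836. DESeq2 called 3960 transcripts higher over input in Rpl22-HA mice. RLE factors moved the median of all genes over input to 0.10, against 0.21 with TMM.

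With the replicate block, IP and input of a number being taken as 1 lysate, no member's call changed in the first table (Slc17a6 2.65 over input). Whether the numbers pair the samples of the second table is not known. The correlations of deviations were 0.32, 0.17, 0.02 and -0.02, with 2 of 4 mice closest to their own number, which does not settle it. The block there gave 3 members higher, Slc17a7 being added (adjusted p = 0.01), and 687 transcripts higher and 761 lower, against 190 and 323 without it. DESeq2 called 814 and 973, the likelihood ratio test 725 and 838, the fit without a filter 672 and 675, and the selection 595 and 567, while single libraries left out gave 11 to 235 higher and 124 to 271 lower. Of all calls, 37.0% were higher as reported, 99.5% with the pan-RGC scaling and 0.124% with the cone scaling. Slc17a7 also passed without a filter (adjusted p = 0.0232) and with the pan-RGC scaling (0.00239).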
